A study of Mus musculus with 2 samples.

Results

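The Hedgehog signaling genes of the mouse long-bone periosteum were examined in single cells: the ligand Ihh, the receptor Ptch1, the signal transducer Smo, the transcription factors Gli1, Gli2, and Gli3, the antagonist Hhip, and the co-receptors Gas1, Cdon, and Boc. These 10 genes were taken by symbol from the 32288 features of the count matrices, and all 10 had unique molecular identifiers (UMIs) in both libraries. The data were 2 libraries of 10x scRNA-Seq, replicates 1 and 2 of a single condition: periosteal cells of femurs and tibias from C57BL6 mice labelled WT and 4 weeks of age, digested with collagenase and sorted by FACS on CD45, CD31, Ter-119, and DAPI. No treatment was given, so the comparisons were made between cell types within these mice. How many mice stood behind each library was not given, and the p-values measure only the spread between these 2 libraries.

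Hedgehog ligands are secreted proteins that bind PTCH1, which otherwise holds SMO inactive; with ligand bound, SMO passes the signal to the GLI proteins. Ptch1, Gli1, and Hhip are themselves transcribed when the pathway is active, so their RNA is widely used as a readout of response, and PTCH1 and HHIP in turn restrain the ligand. GAS1, CDON, and BOC bind the ligand beside PTCH1 and act as co-receptors. In growing long bones, IHH comes from prehypertrophic and early hypertrophic chondrocytes of the growth plate, regulates PTHLH and thereby chondrocyte maturation, and acts on the perichondrium and periosteum, where it is needed for osteoblast formation.

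Cells with at least 500 genes, at least 500 UMIs, and at most 10% mitochondrial UMIs numbered 6276 in library 1 and 2893 in library 2, with medians of 8164 and 6279 UMIs. Hematopoietic clusters held 92.9% and 61.1% of these cells despite the sort, and 448 and 1124 stromal cells remained. The libraries shared 8 cell barcodes. UMIs of the reporter tdTomato were found in both libraries (1482 and 4627) and of EGFP in library 2 (6837 against 0 in library 1), which goes against the WT label, so each level is given by library and library 1 holds the values without EGFP. The clustering left out the Hedgehog genes, and clusters took names from marker lists: 19 and 293 P-SSC-like cells (P-SSC, periosteal skeletal stem cell), 127 and 253 osteoblast-like, 27 and 120 chondrocyte-like, and 85 and 39 Lepr+ stromal-like. The P-SSC list was Clec3b, Cd34, Ly6a, Pi16, Dpp4, Mfap5, Pdgfra, Dpt, Cd248, Thy1, Gsn, Col3a1, and Mfap4. It does not hold Prrx1, Lrp1, or the CD13 gene, by which the authors described mouse Prx1+ P-SSCs. The name P-SSC-like rests on this list alone, and whether these cells are stem cells or other periosteal fibroblasts was not tested. The authors also named a mouse cluster of Lepr+ P-SSCs. Whether the Lepr+ stromal-like cells match that cluster was not tested, so the names here do not set stem cells against other stroma. The Lepr+ stromal-like cells of library 2 carried more of the osteoblast list (14176 UMIs per 1000000 UMIs of the class, CPM) and also of the osteogenic progenitor (10592 CPM) and P-SSC (4376 CPM) lists than of their own (3836 CPM), whereas those of library 1 had 1990, 2709, 606, and 24010 CPM of these lists, beside 8876 CPM of the neutrophil list. A tenocyte-like class had 3 and 94 cells and could be read in library 2 alone. Further clusters took no name and are called by their leading genes: the Col10a1 Mgp cluster (69 and 74 cells), the Tcim Ddit4l cluster (17 and 48 cells), and the Msmp Cytl1 cluster (0 and 76 cells), which was also led by Prg4, the gene of the joint lubricant lubricin, and could be read in library 2 alone. Of the osteoblast-like cells, 39 and 86 came from a cluster led by cell cycle genes. Skeletal muscle-like cells (71 and 63) entered the tests beside the 4 other named classes. Both Col10a1 clusters carried Col10a1, the collagen gene of hypertrophic chondrocytes, at 81214 and 45035 CPM (Col10a1 Mgp) and 27845 and 19738 CPM (Tcim Ddit4l), against 954 and 755 CPM in chondrocyte-like cells.

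Ihh lies at chr1:74945315-74951672 on the minus strand (GRCm38, GENCODE M21). Ptch1 (chr13:63508328-63573598) and Gas1 (chr13:60174405-60177365) share a chromosome and strand. Smo is at chr6:29735503-29761365 (plus), Hhip at chr8:79965851-80058006 (minus), Cdon at chr9:35421128-35507652 (plus), and Boc at chr16:44485049-44558897 (minus). Gli1 is at chr10:127329882-127341974 (minus), Gli2 at chr1:118834132-119053619 (minus), and Gli3 at chr13:15463235-15730026 (plus). On the same strand, annotated genes overlap Ptch1 (A930032L01Rik), Smo (Gm13717), Gli3 (Gm48343), Cdon (Gm25630), and Boc (Mir3081), so reads in the shared stretches are uncertain. On the opposite strand they overlap Gli1 (Arhgap9, Gm47200), Gli2 (Mir6346), Gli3 (Gm6556), Hhip (Gm27820), Gas1 (Gm48488), and Cdon (Gm24188), and Ihh overlaps none.

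The promoter windows of Ihh and Gas1 are shown because these genes, a ligand and a co-receptor, were found in different cell types. Each runs from 250 bases before to 50 bases after the RefSeq start (GRCm38.p6), here chr1:74951623-74951922 and chr13:60177486-60177785, both on the minus strand and written 5′ to 3′. Capitals mark the letters TGCGGT, a form of the RUNX core motif, 45 bases before the start of Ihh.
Ihh: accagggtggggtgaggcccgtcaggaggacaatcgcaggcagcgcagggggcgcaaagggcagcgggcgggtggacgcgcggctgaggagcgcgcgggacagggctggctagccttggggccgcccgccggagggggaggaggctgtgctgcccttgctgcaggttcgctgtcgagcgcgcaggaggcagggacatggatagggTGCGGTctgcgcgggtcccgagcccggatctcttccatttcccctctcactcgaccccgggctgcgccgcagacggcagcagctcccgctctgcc
Gas1: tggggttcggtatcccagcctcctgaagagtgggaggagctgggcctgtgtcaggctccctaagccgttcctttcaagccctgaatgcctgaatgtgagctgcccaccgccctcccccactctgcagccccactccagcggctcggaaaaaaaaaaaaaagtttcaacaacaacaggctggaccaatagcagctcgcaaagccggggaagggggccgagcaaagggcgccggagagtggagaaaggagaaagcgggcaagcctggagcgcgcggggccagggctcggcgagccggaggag
Windows were present in the RefSeq table for 8 of the 10 genes, all but Gli1 and Boc. The GLI letters GACCACCCA, on either strand, were in 0.253% of all 32851 promoter windows and in none of the 8. TGCGGT was in 6.45% of all windows and, among the 8, in that of Ihh. The variant TGTGGT was in 16.8% of all windows and, among the 8, in that of Gli3. These matches describe the letters and are not evidence of binding.

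Ihh, the ligand, was found almost wholly in cartilage cells. Chondrocyte-like cells and both Col10a1 clusters held 301 of 318 Ihh UMIs in library 1 (94.7%, exact binomial 95% CI 91.6 to 96.9) and 741 of 753 in library 2 (98.4%, CI 97.2 to 99.2), although they were 113 and 242 cells. The intervals here and below cover counting error only. By class, Ihh was at 263 CPM (exact Poisson 95% CI 231 to 298) and 118 CPM (107 to 130) in chondrocyte-like cells and at 146 (110 to 189) and 208 (182 to 236) CPM in the Tcim Ddit4l cluster. In the Col10a1 Mgp cluster it was at 11.7 CPM in library 1 (6 UMIs) and 134 CPM in library 2. The order of these 3 groups thus differed between the libraries, and none of the 3 differences between them passed the test (adjusted p from 0.459 to 0.98, edgeR quasi-likelihood test).

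Other stromal classes had almost no Ihh. Osteoblast-like cells had 2 and 3 UMIs of Ihh (0.712 and 0.791 CPM), and the Msmp Cytl1 cluster had 3 (3.62 CPM). P-SSC-like, Lepr+ stromal-like, tenocyte-like, and skeletal muscle-like cells had 0 UMIs of Ihh, which in the 293 P-SSC-like cells of library 2 allows a level of up to 1.09 CPM and in the 39 Lepr+ stromal-like cells up to 13.5 CPM. B cell-like cells, which should lack Ihh and serve as a background for free RNA, had 0.151 and 0.237 CPM. The osteoblast-like values of Ihh overlap this background in their counting intervals.

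Within the chondrocyte-like class Ihh was carried by a minority of cells. A UMI of Ihh was present in 13 of 27 cells (48.1%) and 46 of 120 cells (38.3%), against 0.112% and 0.15% of B cell-like cells. Chondrocyte-like cells were deep (medians of 34081 and 30118 UMIs, against 3850 and 4004 in B cell-like cells), and at 1000 UMIs per cell the shares with Ihh were 16.3% and 8.14%, against 0.0164% and 0.0324%. The highest cells held 61 and 59 Ihh UMIs, and 3 and 6 cells were enough for 50% of the class's Ihh UMIs. In library 1, a single cell held 43 of 56 Ihh UMIs of the Tcim Ddit4l cluster and another held 5 of 6 in the Col10a1 Mgp cluster, so those levels rest on few cells.

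**Figure D1:**
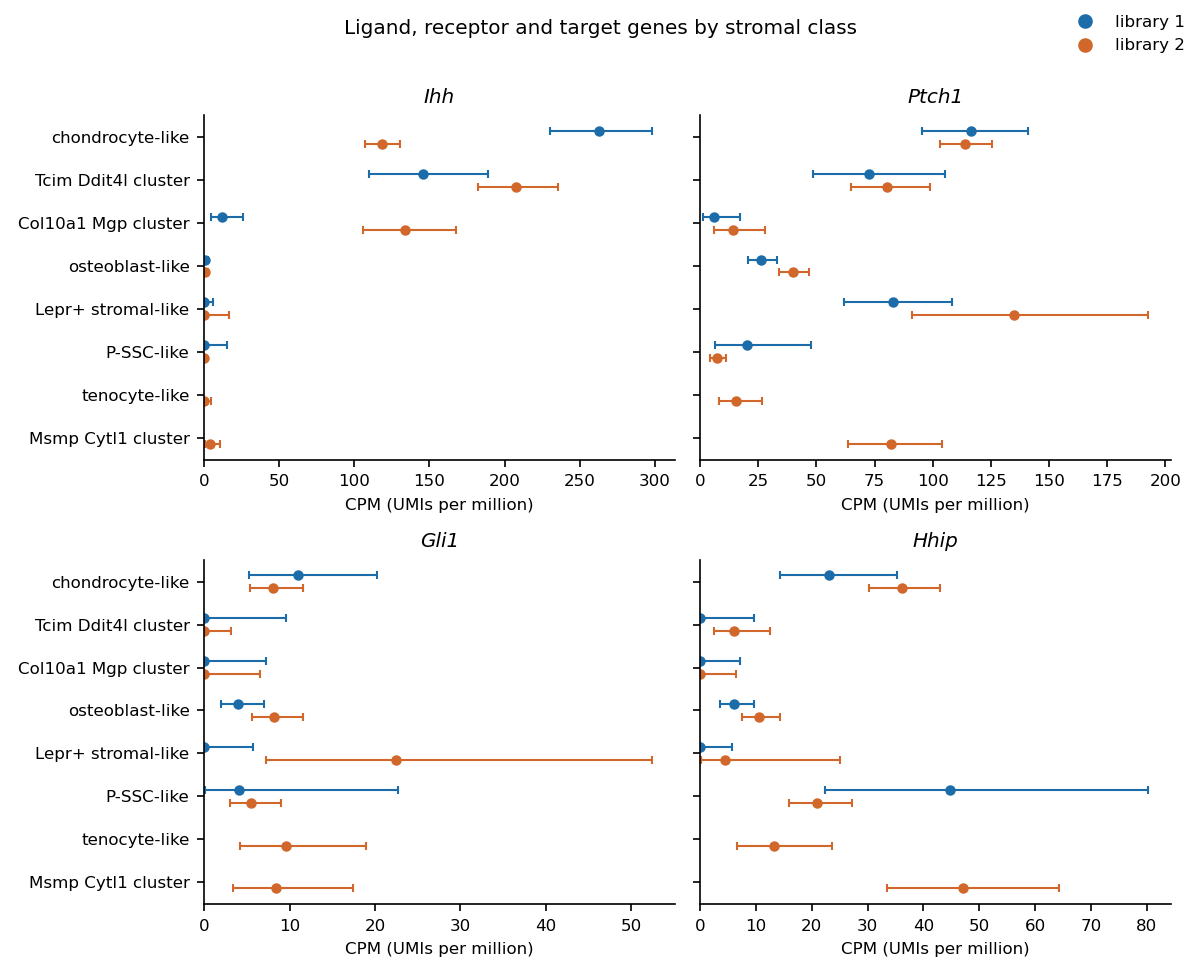
Levels of Ihh, Ptch1, Gli1, and Hhip in CPM (x axis, linear from 0) by stromal class (y axis), with 1 point per library and exact Poisson 95% intervals; a class with under 10 cells in a library has no point. Ihh stands at 118 to 263 CPM in chondrocyte-like cells and at under 1 CPM in osteoblast-like cells, while Ptch1 is also present in Lepr+ stromal-like cells (82.8 and 135 CPM).

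Ptch1, the receptor and a target of the pathway, was highest in chondrocyte-like and Lepr+ stromal-like cells. Chondrocyte-like cells had 117 and 114 CPM of Ptch1, with a UMI in 81.5% and 81.7% of cells. Lepr+ stromal-like cells had 82.8 and 135 CPM, but in library 2 a single cell held 19 of the class's 30 Ptch1 UMIs. In that library the class also carried more of the osteoblast list (14176 CPM) than of its own list (3836 CPM). The Tcim Ddit4l cluster (72.8 and 80.6 CPM) and the Msmp Cytl1 cluster (82.1 CPM, library 2) followed, then osteoblast-like cells with 26.4 and 40.1 CPM. Neither chondrocyte-like nor Lepr+ stromal-like cells passed the main test against osteoblast-like cells for Ptch1. The log2 ratios of Lepr+ stromal-like to osteoblast-like CPM were 1.65 and 1.75 by library. P-SSC-like cells (20.4 CPM from 5 UMIs, and 7.25 CPM from 20), tenocyte-like cells (15.6 CPM in library 2), and the Col10a1 Mgp cluster (5.87 and 14.1 CPM) were at the low end. Ptch1 in B cell-like cells was at 9.43 and 6.88 CPM, and the counting intervals of P-SSC-like cells (6.62 to 47.5 and 4.43 to 11.2 CPM) hold these levels. Ptch1 was lower in neutrophil-like cells (1.49 and 0.553 CPM) and monocyte/macrophage-like cells (3.95 and 1.37 CPM), so it was not at 1 like level in all hematopoietic classes, and the B cell-like level need not be free RNA alone. Of 931 Ptch1 UMIs in library 1, 273 were in stromal cells, against 802 of 894 in library 2. Unnamed hematopoietic cells held the most of any class in library 1, 296 UMIs (31.8%), with 26.0% of all UMIs of that library. In library 2 they held 20 Ptch1 UMIs (2.24%), with 7.56% of all UMIs.

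Hhip, which binds the ligand and is a target of the pathway, was more restricted. P-SSC-like cells had 44.8 (11 UMIs) and 21.03 CPM of Hhip, chondrocyte-like cells 23.1 and 36.2 CPM, and the Msmp Cytl1 cluster 47.1 CPM. A UMI of Hhip was in 4 of 19 and 25 of 293 P-SSC-like cells. It was in 8 of 27 and 47 of 120 of the deeper chondrocyte-like cells. Osteoblast-like cells had 6.06 and 10.54 CPM and tenocyte-like cells 13.2 CPM. Hhip had 0 UMIs in the Col10a1 Mgp cluster in both libraries (up to 5.87 and 5.29 CPM allowed), 0 and 7 UMIs in the Tcim Ddit4l cluster, and 0 and 1 UMI in Lepr+ stromal-like cells. P-SSC-like and chondrocyte-like cells changed order between the libraries and did not pass the test against each other (log2 fold change −0.48, SE 0.71, adjusted p = 0.678, edgeR).

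Gli1, the transcription factor that is itself a target, was sparse in every class. Chondrocyte-like cells had 10 and 29 UMIs of Gli1 (11.0 and 8.08 CPM), osteoblast-like cells 11 and 31 (3.92 and 8.17 CPM), and P-SSC-like cells 1 and 15 (4.08 and 5.44 CPM). Lepr+ stromal-like cells had 0 and 5 Gli1 UMIs, and neither Col10a1 cluster had any in either library. B cell-like cells had 1 Gli1 UMI in each library (0.0504 and 0.119 CPM). Gli1 and Gli2 fell below the count filter, so 8 of the 10 genes entered the tests. With no filter on low counts, Gli1 was called lower in the Tcim Ddit4l cluster than in chondrocyte-like cells (adjusted p = 0.00359, edgeR), from 0 UMIs there, at least 4.45-fold lower.

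Among cartilage cells, Ptch1 and Hhip stood lower where Col10a1 was high, whereas Ihh did not follow 1 direction. The chondrocyte-like cells and both Col10a1 clusters were split by the percent of each cell's UMIs taken by Col10a1 (under 0.1, 0.1 to 1, 1 to 5, and 5 or more), which gives ranges and not cell types. The ranges held 31, 6, 16, and 60 cells in library 1 and 113, 29, 69, and 31 in library 2, with median depth between 5982 and 32034 UMIs; 32 and 37 cells lay within 0.5 log2 units of the edge at 5%. The ranges of 6 and 16 cells are thin, and the values are a description without a test.

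Ptch1 went from 111 and 119 CPM under 0.1% Col10a1 to 19.4 and 4.62 CPM at 5% or more, and its intervals in the lowest and highest range did not overlap in either library. Hhip went from 22.7 and 40.0 CPM under 0.1% to 0 UMIs in the highest range in both libraries; in library 2 the middle ranges had 2 and 1 Hhip UMIs. The upper limits of the Hhip intervals in the highest range, 7.17 and 17.0 CPM, lay below the lower limits in the lowest range, 14.1 and 33.5 CPM. Gli1 had 10 and 28 UMIs in the lowest range and a single UMI in all other ranges together. Its intervals in the lowest and highest range overlapped in both libraries, which does not settle whether these ranges differed. In library 2 the range of 1 to 5% had 0 Gli1 UMIs. Its upper limit of 3.09 CPM lay below the lower limit of 5.56 CPM in the lowest range. Pth1r, the receptor for PTHLH, was at 2007 and 945 CPM in the lowest and 115 and 212 CPM in the highest range. Ihh was at 231, 250, 26.8, and 105 CPM from the lowest to the highest range in library 1 and at 109, 207, 184, and 194 CPM in library 2. In the highest range a UMI of Ihh was in 8.33% of 60 cells and 12.9% of 31 cells. The Ihh levels of that range thus rest on few cells, which the counting intervals do not show. Smo showed no such drop in library 2 (24.8 CPM in the lowest and 27.7 CPM in the highest range), and in library 1 was at 46.5 and 21.4 CPM.

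**Figure D2:**
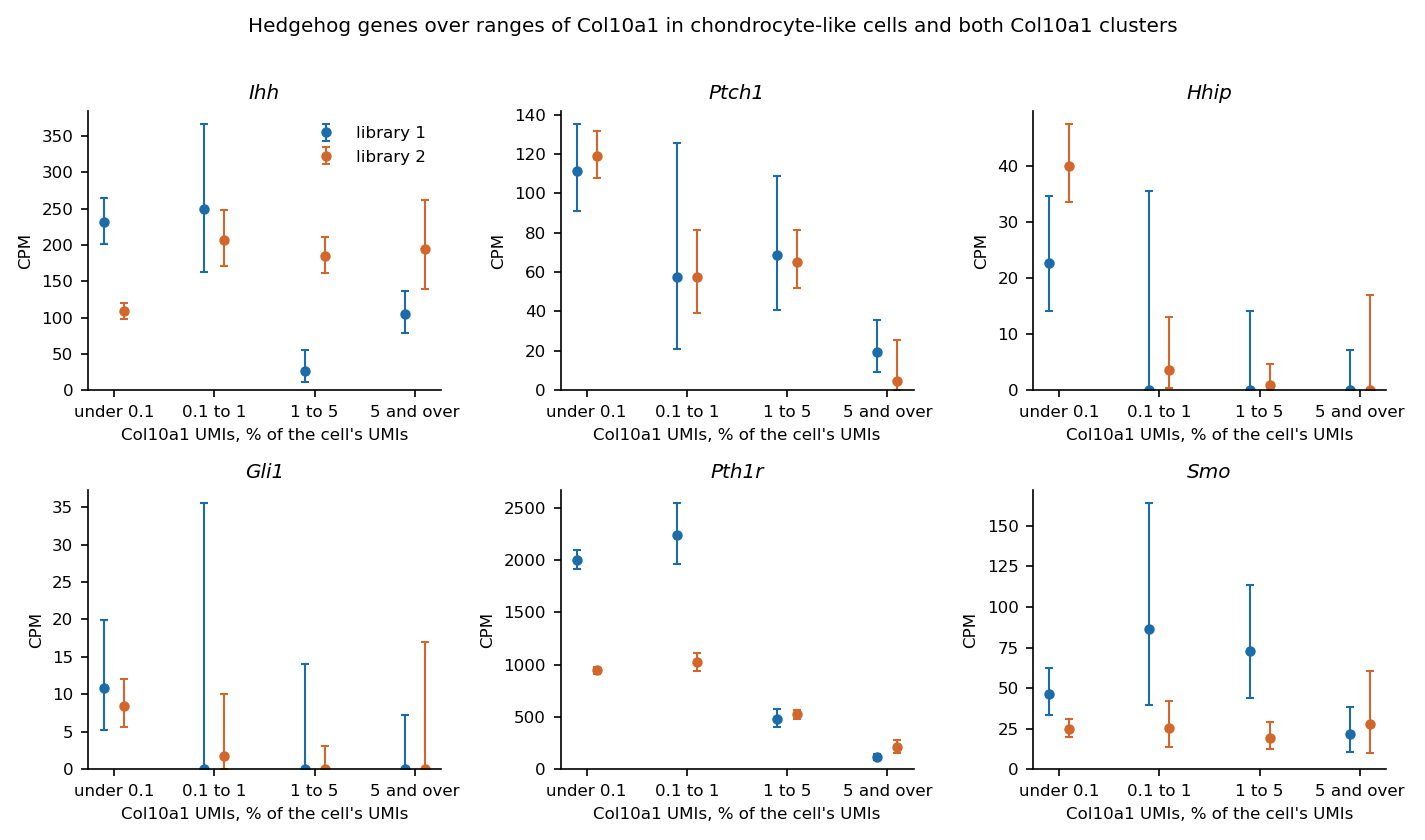
Levels in CPM (y axis, linear from 0) of Ihh, Ptch1, Hhip, Gli1, Pth1r, and Smo over 4 ranges of Col10a1 (x axis, percent of a cell's UMIs) in chondrocyte-like cells and both Col10a1 clusters, with 1 point per library and exact Poisson 95% intervals. Ptch1 ends at 19.4 and 4.62 CPM and Hhip at 0, while Ihh is at 105 and 194 CPM in the highest range. Those Ihh levels come from 8.33% and 12.9% of the cells in that range.

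Chondrocyte-like cells with and without a UMI of Ihh had different levels of the targets, again as a description, since cells of a library are not replicates. Hhip was at 6.36 CPM in Ihh-positive and 41.2 CPM in Ihh-negative cells of library 1, and at 10.2 and 54.3 CPM in library 2. The class had 21 Hhip UMIs, in 8 of 27 cells, in library 1 and 130, in 47 of 120 cells, in library 2. The Hhip levels of library 1 thus rest on few counts. Ptch1 was at 55.1 and 183 CPM in library 1 and at 95.0 and 127 CPM in library 2, although in library 1 more of the positive cells had a Ptch1 UMI (84.6% against 78.6%). With both Col10a1 clusters pooled, Ptch1 had the opposite order. It was at 55.6 CPM in Ihh-positive and 30.0 CPM in Ihh-negative cells of library 1, and at 86.6 and 38.2 CPM in library 2. Median depth differed more there (19978 against 7396 UMIs, and 21408 against 7248 UMIs). The mix of clusters differed too. A UMI of Ihh was in 7 of 17 and 23 of 48 Tcim Ddit4l cells, but in 2 of 69 and 14 of 74 Col10a1 Mgp cells. Ptch1 was at 72.8 and 80.6 CPM in the former cluster and 5.87 and 14.1 CPM in the latter. The part of this mix in the pooled order was not tested. Among chondrocyte-like cells, Pth1r went the other way, with 3349 CPM in Ihh-positive and 1224 CPM in Ihh-negative cells of library 1 and 1908 and 543 CPM in library 2. Median depth was also higher in the positive chondrocyte-like cells (37379 against 32187 UMIs, and 31398 against 28115 UMIs), and its part in the split was not tested.

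Gas1, a co-receptor anchored in the membrane by a glycolipid, was highest in P-SSC-like and tenocyte-like cells and the Msmp Cytl1 cluster. P-SSC-like cells had 949 CPM (CI 831 to 1080) and 834 CPM (801 to 869) of Gas1, with a UMI in 16 of 19 and 267 of 293 cells. Tenocyte-like cells had 787 CPM and the Msmp Cytl1 cluster 728 CPM in library 2. Lepr+ stromal-like cells were lower, at 183 and 162 CPM, and osteoblast-like cells lower again, at 39.2 and 42.4 CPM. Chondrocyte-like cells had 0 and 4 Gas1 UMIs (0 and 1.11 CPM), and the Tcim Ddit4l cluster 1 and 2. All 9 Gas1 UMIs of the Col10a1 Mgp cluster came from a single cell of library 2. B cell-like cells had 0.0504 and 0.475 CPM. The classes with most Ihh thus had little Gas1, and the Gas1 intervals of P-SSC-like cells did not overlap those of the other classes with 10 or more cells in both libraries.

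Cdon and Boc, related cell-surface co-receptors of the immunoglobulin superfamily, were also highest in these groups. Cdon was at 163 and 126 CPM in P-SSC-like cells, 113 CPM in tenocyte-like cells, and 72.4 CPM in the Msmp Cytl1 cluster, and at under 10 CPM in Lepr+ stromal-like, osteoblast-like, and chondrocyte-like cells and both Col10a1 clusters. Boc was broader, at 36.7 and 74.7 CPM in P-SSC-like cells, 117 CPM in tenocyte-like cells, and 74.8 CPM in the Msmp Cytl1 cluster. Osteoblast-like cells had 27.1 and 19.5 CPM of Boc, chondrocyte-like cells 6.6 and 5.01 CPM, and the Col10a1 Mgp cluster 0 in both libraries.

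Both P-SSC-like clusters carried the 3 co-receptors in different proportion. The cluster led by Pi16 had 864 and 723 CPM of Gas1 and the cluster led by Mfap4 had 1315 and 1040 CPM, the latter from 4 and 121 cells. Cdon was at 181 and 148 CPM in the Pi16 cluster and 86.2 and 84.4 CPM in the Mfap4 cluster. Boc was at 35.2 and 50.9 CPM in the Pi16 cluster and at 43.1 and 118 CPM in the Mfap4 cluster. In library 2, 161 of 267 Gas1-positive P-SSC-like cells had a Cdon UMI and 110 had a Boc UMI, whereas 15 had a Ptch1 UMI. The Gas1-positive cells were 267 of the 293 cells of the class, which held 347, 206, and 20 UMIs of these genes. The shares thus mainly describe detection over the class and do not show joint expression with Gas1.

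**Figure D3:**
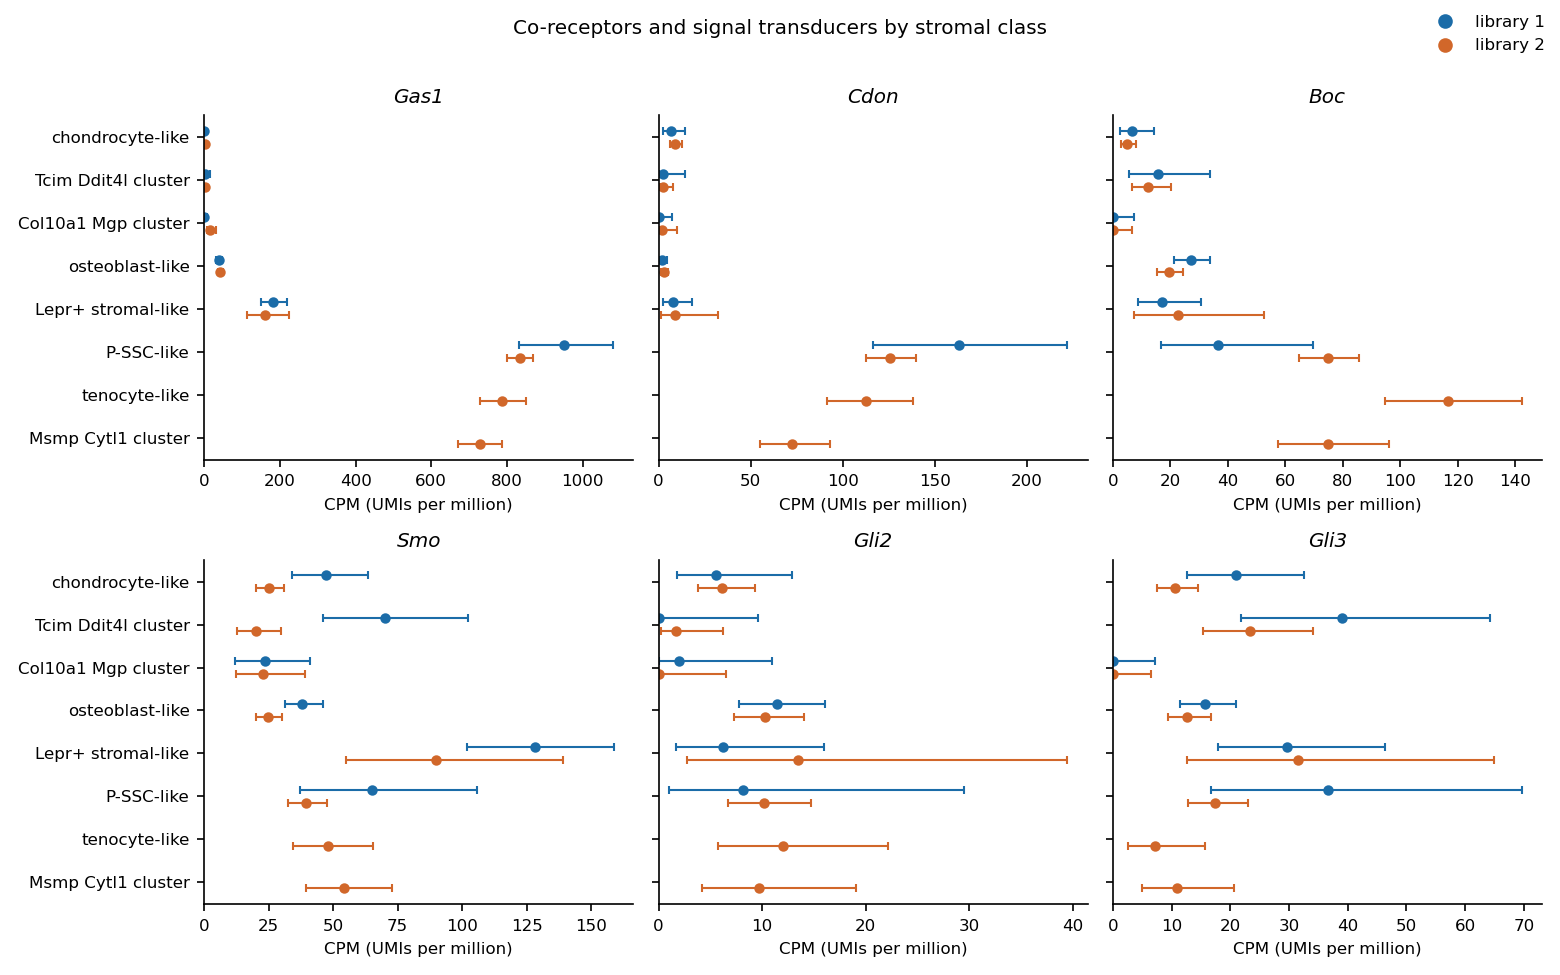
Levels of the co-receptors Gas1, Cdon, and Boc and of the transducers Smo, Gli2, and Gli3 in CPM (x axis, linear from 0) by stromal class (y axis), with 1 point per library and exact Poisson 95% intervals. Gas1 reaches 949 and 834 CPM in P-SSC-like cells against 0 and 1.11 CPM in chondrocyte-like cells, whereas Smo is present in each class shown.

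Among P-SSC-like, Lepr+ stromal-like, osteoblast-like, and chondrocyte-like cells, Smo, Gli2, and Gli3, which carry the signal inside the cell, varied less than Gas1 and Cdon. Means of both libraries ran from 31.4 to 109 CPM for Smo, 14.2 to 30.6 CPM for Gli3, and 0.557 to 892 CPM for Gas1. Smo was at 128 and 89.9 CPM in Lepr+ stromal-like cells, 65.2 and 39.5 CPM in P-SSC-like cells, 47.3 and 25.1 CPM in chondrocyte-like cells, and 38.1 and 24.8 CPM in osteoblast-like cells. In all of these and in the Tcim Ddit4l cluster (70.2 and 19.9 CPM), Smo was higher in library 1. Gli3 was at 36.7 and 17.4 CPM in P-SSC-like cells, 29.7 and 31.5 CPM in Lepr+ stromal-like cells, and 39.0 and 23.4 CPM in the Tcim Ddit4l cluster, with 0 UMIs in the Col10a1 Mgp cluster. Gli2 did not exceed 13.5 CPM in any class with at least 10 cells per library. Neither Smo nor Gli3 passed the test in any of the 6 comparisons between named classes. Their log2 fold changes lay between −0.91 and 1.10 for Smo (SE 0.51 to 0.53) and between −0.09 and 0.40 for Gli3 (SE 0.58 to 0.64). Log2 ratios of Smo CPM by library, without the scaling of the fit (TMM), were 1.75 and 1.86 in Lepr+ stromal-like against osteoblast-like cells. In simulated data, changes of 2 log2 units were recovered in 18.5% to 33.4% of genes, so such differences can be missed. Gli3 passed in a further fit with the Col10a1 clusters, given below.

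The first comparison set P-SSC-like against osteoblast-like cells, the bone-forming class. Of all 9554 genes tested, 15.7% passed the adjusted threshold of 0.05 (9.37% higher and 6.3% lower), and of the 8 Hedgehog genes 3 did, 2 higher and 1 lower. Gas1 was higher in P-SSC-like cells by 3.96 on the log2 scale (SE 0.49, adjusted p = 0.000432, edgeR) and Cdon by 5.28 (SE 0.57, adjusted p = 0.000284, edgeR). Ptch1 was lower (log2 fold change −2.04, SE 0.63, adjusted p = 0.0441, edgeR). The Ptch1 difference came mainly from library 2, where the log2 ratio was −2.47, against −0.37 in library 1, and it missed the threshold when the Hedgehog genes were kept in the clustering (adjusted p = 0.0839; range over all 11 other settings 0.00914 to 0.0839, edgeR). Hhip (1.35, SE 0.72, adjusted p = 0.258) and Boc (0.91, SE 0.48, adjusted p = 0.259) did not pass.

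Against chondrocyte-like cells, 22.5% of all genes passed (12.9% higher and 9.61% lower) and 5 of the 8 Hedgehog genes, 3 higher and 2 lower. Gas1 (log2 fold change 9.47, SE 0.67, adjusted p = 1.72e-05, edgeR), Cdon (3.64, SE 0.53), and Boc (2.95, SE 0.54) were higher in P-SSC-like cells. Ihh was at least 148-fold lower, from 0 UMIs in P-SSC-like cells and a floor of 3 counts over the class in both libraries; by library, where the floor is 3 counts in each, the bounds were 21.5-fold and 109-fold. Ptch1 was lower (log2 fold change −3.82, SE 0.65, adjusted p = 0.00156, edgeR), with log2 ratios of −2.52 and −3.97 in the libraries.

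Against Lepr+ stromal-like cells, 7.33% of all genes passed (3.77% higher and 3.56% lower) and 4 of the 8 Hedgehog genes, 3 higher and 1 lower. Cdon (log2 fold change 4.32, SE 0.61, adjusted p = 0.00213), Gas1 (2.58, SE 0.46, adjusted p = 0.00604), and Hhip (4.69, SE 1.199, adjusted p = 0.0401) were higher in P-SSC-like cells, and Ptch1 was lower (−3.04, SE 0.65, adjusted p = 0.0145). The Hhip call rests on 0 and 1 UMI in Lepr+ stromal-like cells, with a log2 ratio of 0.64 in library 2, and was lost with the Hedgehog genes kept in the clustering (adjusted p = 0.111, edgeR) or a mitochondrial limit of 5% (adjusted p = 0.0547, edgeR; range over 9 other settings 0.00673 to 0.111). Gas1 had log2 ratios of 2.38 in library 1 and 2.37 in library 2, although the Lepr+ stromal-like cells of library 2 carried more of the osteoblast and P-SSC lists than those of library 1.

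Chondrocyte-like cells differed from osteoblast-like cells in the ligand and in the co-receptors Gas1 and Boc. Of all genes 10.7% passed (5.05% higher and 5.7% lower), and 3 of the 8 Hedgehog genes, 1 higher and 2 lower. Ihh was higher by 7.82 on the log2 scale (SE 0.64, adjusted p = 0.000573, edgeR), Gas1 was lower (log2 fold change −5.51, SE 0.62, adjusted p = 0.000429, edgeR), and Boc was lower (−2.04, SE 0.53, adjusted p = 0.0366, edgeR). The size of the Ihh value rests on 2 and 3 UMIs in osteoblast-like cells, whose intervals overlap the B cell-like background. Ptch1 stood at 4.42 and 2.84 times the osteoblast-like level in libraries 1 and 2 without passing (log2 fold change 1.78, SE 0.55, adjusted p = 0.0585), and passed with the library as a block (adjusted p = 0.0419); it passed in 6 of 11 other settings (adjusted p from 0.00958 to 0.125). Cdon ran the other way from Gas1 and Boc, at 3.09 and 3.17 times the osteoblast-like level, without passing (log2 fold change 1.64, adjusted p = 0.0778). The Boc call was lost with the Hedgehog genes kept in the clustering (adjusted p = 0.122, edgeR; range over 11 settings 0.00491 to 0.122).

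Lepr+ stromal-like cells were compared with both. Against osteoblast-like cells 9.61% of all genes passed (5.66% higher and 3.95% lower) and 0 of the 8 Hedgehog genes by edgeR, with 2 (Gas1 and Hhip) under an unadjusted p of 0.05 and 1 (Gas1) called by DESeq2. Gas1 was at 183 and 162 against 39.2 and 42.4 CPM (log2 fold change 1.38, SE 0.45, adjusted p = 0.0747, edgeR). The log2 ratios of these CPM by library, without the scaling of the fit (TMM), were 2.22 and 1.93, above the fitted value. Gas1 passed with the library as a block (adjusted p = 0.0406, edgeR). Over 9 settings of edgeR and DESeq2 its adjusted p ranged from 0.00272 to 0.115. Against chondrocyte-like cells 22.9% of all genes passed (12.3% higher and 10.5% lower) and 3 of the 8, 1 higher and 2 lower. Gas1 was higher by 6.89 on the log2 scale (SE 0.64, adjusted p = 0.000144, edgeR), Ihh was at least 42.4-fold lower (56.1-fold and 8.77-fold by library), and Hhip was lower (log2 fold change −5.17, SE 1.16, adjusted p = 0.00972, edgeR). The Hhip value rests on 0 and 1 UMI in Lepr+ stromal-like cells, and the log2 ratios by library were −2.30, against the floor, and −1.42. Ptch1 did not pass there (log2 fold change −0.78, SE 0.55, adjusted p = 0.329, edgeR), and its log2 ratios of CPM by library were −0.49 and 0.24.

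**Figure D4:**
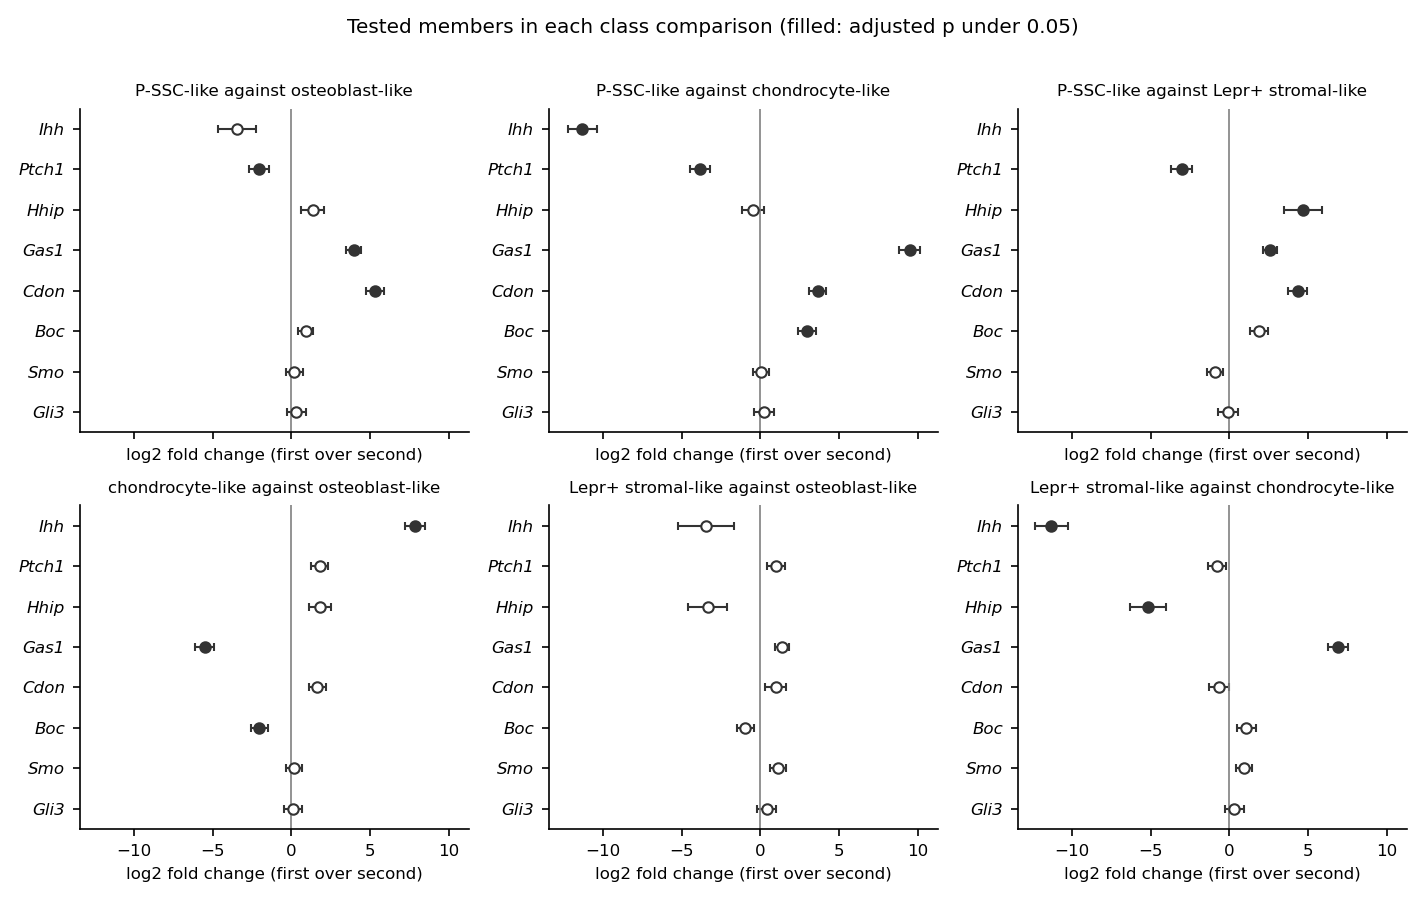
Log2 fold changes (x axis, first class over second) of the 8 tested Hedgehog genes (y axis) in 6 class comparisons, with bars of 1 SE and filled points for an adjusted p under 0.05; Ihh has no point between P-SSC-like and Lepr+ stromal-like cells, both at 0 UMIs. Gas1 is higher in P-SSC-like cells in all 3 of their comparisons (3.96, 9.47, and 2.58), and the fitted values for Ihh against classes at 0 UMIs are not bounds.

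The Col10a1 clusters were compared with chondrocyte-like cells in a further fit of 9355 genes, added after the clusters had been seen. In the Col10a1 Mgp cluster 15.7% of all genes passed (6.88% higher and 8.82% lower) and 5 of the 8 Hedgehog genes, 1 higher and 4 lower. Ptch1 was lower (log2 fold change −2.84, SE 0.62, adjusted p = 0.0077), Hhip at least 12.1-fold lower, Gli3 at least 4.55-fold lower, and Boc at least 1.92-fold lower, the last with adjusted p = 0.0433, which became 0.0606 with the library as a block and passed in 4 of 11 other settings (0.0231 to 0.158). With the floor in each library the bounds were 3.93-fold and 6.84-fold for Hhip and 3.56-fold and 2-fold for Gli3, and Boc in chondrocyte-like cells was at about the floor. Gas1 passed as higher (3.77, SE 0.89, adjusted p = 0.0103), from the 9 UMIs of a single cell, and turned to −1.62 without integration (adjusted p = 0.558). In library 1 this cluster also carried 7431 CPM of the neutrophil list and 3764 CPM of the erythroid list, against 31.8 and 61.7 CPM in library 2, and their part in these values was not tested.

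In the Tcim Ddit4l cluster 18.4% of all genes passed (6.85% higher and 11.5% lower) and 2 of the 8, both lower: Hhip (log2 fold change −3.51, SE 0.96, adjusted p = 0.0247) and Cdon (−2.25, SE 0.72, adjusted p = 0.037). Cdon had 1 and 3 UMIs there and was at 2.6 against 6.6 CPM in library 1, and it did not pass by DESeq2 (adjusted p = 0.0782; range over 11 settings 0.0144 to 0.0782). Ptch1 was at −1.26 without passing (SE 0.53, adjusted p = 0.114) and passed with the library as a block (adjusted p = 0.0491; range 0.0321 to 0.155). Between both Col10a1 clusters 22.8% of all genes passed (10.6% higher and 12.3% lower) and 3 of the 8, 2 higher and 1 lower. The Tcim Ddit4l cluster had at least 9.8-fold more Gli3 (adjusted p = 0.00783) and at least 4.67-fold more Boc (adjusted p = 0.0179), the latter with adjusted p = 0.0513 by DESeq2. By library the bounds were 6.64-fold and 4.42-fold for Gli3 and 2.66-fold and 2.29-fold for Boc. Gas1 passed as lower (−3.20, SE 0.92, adjusted p = 0.0205) against that single cell and was at 3.82 without integration (adjusted p = 0.116). Ptch1 was 12.4 and 5.71 times as high in the libraries without passing (adjusted p = 0.0757), and passed with the library as a block (adjusted p = 0.0468; range over 11 settings 0.0328 to 0.094).

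Of 38 other genes of the pathway, 21 passed the count filter. The share of all genes called in the same comparison is given beside each count, and no difference from it was tested. In P-SSC-like against osteoblast-like cells, 3 were higher and 2 lower (15.7% of all genes called). The list median was 0.39 on the log2 scale against −0.02 for all genes. Against chondrocyte-like cells 4 were higher and 2 lower (22.5% of all genes called, median 0.65 against −0.01). Against Lepr+ stromal-like cells 2 were higher and 2 lower (7.33%, 0.03 against 0.01). Chondrocyte-like against osteoblast-like cells had 2 higher and 1 lower (10.7%, 0.06 against −0.01). Lepr+ stromal-like cells had 1 higher and 0 lower against osteoblast-like cells (9.61%, 0.41 against 0.02). Against chondrocyte-like cells they had 2 higher and 3 lower (22.9%, 0.73 against 0.01). The Col10a1 Mgp cluster had 2 higher and 2 lower against chondrocyte-like cells (15.7%, −0.64 against −0.24). The Tcim Ddit4l cluster had 2 and 3 (18.4%, −0.27 against 0), and between both clusters it was 1 and 1 (22.8%, −0.07 against 0.17).

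Among ligand-handling genes of that list was Scube1, from a family that helps release Hedgehog ligands. It was at 50.6 and 25.6 CPM in chondrocyte-like cells and had 0 UMIs in P-SSC-like cells, at least 30.7-fold lower. Against osteoblast-like and Lepr+ stromal-like cells the bounds were 4.4-fold and 12.8-fold. These bounds take both libraries together. In library 1, 3 counts stand for 12.2 CPM in P-SSC-like cells. Scube1 was there at 2.49 CPM in osteoblast-like and 12.5 CPM in Lepr+ stromal-like cells, so these 2 bounds do not hold in library 1 alone. Neither library alone reaches the chondrocyte-like bound of 30.7-fold, and library 2 alone does not reach the Lepr+ stromal-like bound of 12.8-fold. The Lepr+ stromal-like level of library 2, 13.5 CPM, stands for 3 counts. Scube3 of the same family was at 60.7 and 67.0 CPM in the Col10a1 Mgp cluster and 39.0 and 67.6 CPM in the Tcim Ddit4l cluster, against 3.3 and 6.68 CPM in chondrocyte-like cells. Both Scube3 differences passed (log2 fold change 4.28, SE 0.67, adjusted p = 0.00274, and 2.65, SE 0.63, adjusted p = 0.0171). Gpc3, a glypican that binds Hedgehog ligands, was at 175 and 144 CPM in P-SSC-like cells, higher than in osteoblast-like cells (log2 fold change 4.14, SE 0.74, adjusted p = 0.00475), chondrocyte-like cells (5.31, SE 0.82), and Lepr+ stromal-like cells (4.35, SE 0.86).

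Pth1r and Pthlh belong to the feedback loop with Ihh in cartilage. Pth1r was at 2327 and 1103 CPM in chondrocyte-like cells, 521 and 528 CPM in osteoblast-like cells, and 24.5 and 34.1 CPM in P-SSC-like cells, and the last differed from the chondrocyte-like level (log2 fold change −6.22, SE 0.70, adjusted p = 0.000233). Pth1r was also lower than in chondrocyte-like cells in the Col10a1 Mgp cluster (fell by 2.38, SE 0.60, adjusted p = 0.016) and the Tcim Ddit4l cluster (fell by 3.46, SE 0.62, adjusted p = 0.00209). Pthlh was at 20.4 and 82.3 CPM in P-SSC-like cells and higher there than in osteoblast-like cells (log2 fold change 6.34, SE 1.13, adjusted p = 0.00226). In chondrocyte-like cells Pthlh had 0 CPM in library 1 and 15.04 CPM in library 2, and in the Tcim Ddit4l cluster it had 0 UMIs, at least 6.16-fold lower (adjusted p = 0.0247).

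Of the intracellular and cilium genes, Evc, a ciliary protein that acts beside SMO, was at 32.6 and 31.9 CPM in P-SSC-like cells against 3.21 and 6.33 CPM in osteoblast-like cells (log2 fold change 2.27, SE 0.67, adjusted p = 0.0385). Tulp3, which carries receptors into the cilium, was higher in Lepr+ stromal-like than osteoblast-like cells (53.1 and 58.5 against 4.27 and 8.17 CPM, log2 fold change 2.43, adjusted p = 0.0294). Arl13b, a ciliary GTPase, was lower in the Col10a1 Mgp cluster than in chondrocyte-like cells (0 and 1.76 against 20.9 and 61.0 CPM, fell by 4.75, adjusted p = 0.0159). Ccnd2, a cyclin gene, was at 18.7 and 18.9 CPM in chondrocyte-like cells and higher in P-SSC-like cells (log2 fold change 2.30, adjusted p = 0.00982) and Lepr+ stromal-like cells (2.27, adjusted p = 0.0112). Ccnd1 was lower in the Tcim Ddit4l cluster than in chondrocyte-like cells (2.6 and 4.33 against 24.2 and 37.0 CPM, fell by 3.66, adjusted p = 0.0118).

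The genes most like each member were found by Pearson correlation of log2(CPM + 10) over the 10 sums of 5 classes and 2 libraries, which share libraries and depth; no p is given. These classes leave out both Col10a1 clusters, which also carry Ihh. Ihh was most like Rspo4, Smim6, and Matn1 (r = 0.999 for each), followed by Gjc3 and Kctd4. As Ihh was almost absent outside the chondrocyte-like sums, such an r mainly shows that a gene is found in that class. It does not show that the gene follows Ihh within the class. Gas1 was most like Ddah2 (r = 0.999), Ecm1 (0.99), Bcr, Adprh, and Sfrp4. Ptch1 was most like Wnt5b (r = 0.956), Fibin, Loxl3, Cct7, and Rnf113a2. Hhip was most like Pcolce2 (r = 0.962), Galnt18, Eif5a2, Ctnnal1, and Rcl1.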

How the data were processed

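Periosteal cells were measured in 2 scRNA-Seq libraries, replicates 1 and 2 of a single group. Per the labels, the authors used Cell Ranger 6.1.2 with mm10. The deposited values were UMI counts for each gene and barcode, neither normalized nor pooled; the gene annotation is not given in the sources used here. The files held 9932 and 3659 barcodes with 100808649 and 33306452 UMIs in all. UMIs remove PCR copies, and 3′ counting does not scale with gene length.

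Cells with under 500 genes, under 500 UMIs, or over 10% mitochondrial UMIs were removed. Libraries were integrated with Seurat 5.3.0 (3000 variable genes without the Hedgehog genes and the other pathway genes, 30 anchor dimensions, 15 principal components, resolution 0.8), hematopoietic clusters were removed, and the stroma was integrated and clustered again. A marker counted with a log2 fold of at least 1 (10 CPM added) and a UMI in 20% of cells; a cluster took the class with the largest share of its list found, with at least 3 markers and no other class ahead among its 10 leading genes. Clusters had been seen when this rule was set, and the genes and lists were chosen with earlier results of these data known. An osteoblast-like cluster of 125 cells was led by cell cycle genes. A cluster of B cell markers (26 and 44 cells) was left out. Scrublet (scanpy 1.11.5) marked 124 and 1 barcodes and did not work in library 2; doublets were kept, and removing the marked barcodes was an alternative.

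Sums of UMIs were taken for each class and library, where each library had 10 or more cells of the class. Sums were tested with edgeR 4.0.16 (quasi-likelihood, TMM, filterByExpr, Benjamini-Hochberg, threshold 0.05), with classes drawn from the same cells that defined them; scripts were tested on simulated data. Both classes of a library share that library, and their deviations correlated in all 10 pairs of classes (0.105 to 0.370), so the library pairs the sums and a fit with the library as a block was an alternative, as were DESeq2 1.42.0, other filters, clusterings, and limits. No cluster was named osteogenic progenitor-like or hypertrophic chondrocyte-like, so the comparisons planned for them could not be made with these clusters. Intervals are exact 95% Poisson (CPM) or binomial (shares), and 0 counts allow up to 3. All 10 genes are named; of the 38 other pathway genes, those past the threshold with 1 of the 5 largest changes of the list in a comparison are named, except that not each comparison of such a gene is repeated.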

Additional observations from a re-analysis of the deposited data

Results flagged for a closer look

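Reporter sequences, by which no comparison was grouped, were found in libraries labelled WT. They were not removed before the clustering or the tests, and their part in either was not tested. EGFP had 6837 UMIs in library 2, in 170 cells, and 0 in library 1. tdTomato had 1482 UMIs in library 1 and 4627 in library 2. Neither gene belongs to the mouse genome, and there were no control samples, so the level was read against the limit that a count of 0 allows.

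EGFP in library 2 was highest in both Col10a1 clusters and among the 10 leading genes of the Col10a1 Mgp cluster. It was at 5103 CPM in the Col10a1 Mgp cluster (39 of 74 cells), 1604 CPM in the Tcim Ddit4l cluster (31 of 48 cells), and 223 CPM in chondrocyte-like cells (30 of 120 cells), against 11.2 CPM in P-SSC-like cells and 0.237 CPM in B cell-like cells. EGFP was also at 1034 CPM in Lepr+ stromal-like cells, from 3 of 39 cells, and at 264 CPM in osteoblast-like cells. tdTomato in library 2 was at 536 CPM in P-SSC-like cells, 561 CPM in the Msmp Cytl1 cluster, and 94.4 CPM in chondrocyte-like cells, against 41.5 CPM in B cell-like cells. In library 1 tdTomato was at 12.2 CPM in P-SSC-like and 115 CPM in the Col10a1 Mgp cluster, against 21.9 CPM in B cell-like cells.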

How the results depend on the processing

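Each comparison was refitted under up to 11 other settings, of which leaving out skeletal muscle-like cells, like the fits of the Col10a1 clusters, was chosen after seeing the data. Of 28 calls of Hedgehog genes, 20 held under all settings that gave a value and 8 were lost under at least 1; Boc in the Col10a1 Mgp cluster held in 4 of 11. Resolution 1.2 and no integration left Lepr+ stromal-like cells untested, with 9 and 5 such cells in library 2 (39 in the main setting). Without integration a cluster took the osteogenic progenitor-like name (32 and 79 cells). Against P-SSC-like cells 1121 of 9307 genes passed by edgeR, and of 8 Hedgehog genes 1 was higher and 3 lower. Gas1 (−3.09, adjusted p = 0.000721), Cdon (−4.73, adjusted p = 0.000558), and Boc (−1.57, adjusted p = 0.0398) were lower, and Ptch1 was higher (3.29, adjusted p = 0.0113). Against chondrocyte-like cells 1320 genes passed, with Gas1 higher and Ihh lower. Against osteoblast-like cells 285 genes passed and 0 of the 8. Leaving out a library leaves no residual degrees of freedom and gave values with no test. Beyond the results named with it, the library as a replicate block ended 1 call (Boc, Col10a1 Mgp cluster, adjusted p = 0.0606) and changed no other; with it 1 member (Gas1) passed between Lepr+ stromal-like and osteoblast-like cells. The share of Ihh UMIs in cartilage cells ranged from 94.7% to 98.4% over settings and libraries.

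For P-SSC-like against Lepr+ stromal-like cells, 454 genes passed with the Hedgehog genes kept in the variable genes (700 without them), and for Lepr+ stromal-like against osteoblast-like cells 580 (918). For chondrocyte-like against osteoblast-like cells, 1542 genes passed with no filter on low counts (1027 with it). There 6 of 8 members passed with the bias adjustment off, beside 1284 of 9554 genes. At resolution 1.2 it was 5 of 10 members beside 1473 of 10564 genes. Without skeletal muscle-like cells it was 5 of 10 beside 1231 of 11127 genes. The main setting had 3 of 8 beside 1027 of 9554 genes. For Lepr+ stromal-like against osteoblast-like cells 1 of 8 members passed by DESeq2, with the bias adjustment off, or with the block. Of 9554 genes, 1047, 1164, and 1205 passed in these settings. For the Tcim Ddit4l cluster against chondrocyte-like cells 1 of 8 passed by DESeq2, beside 1937 of 9355 genes. By DESeq2 the median of all genes moved from 0.01 to 0.24 for Lepr+ stromal-like against chondrocyte-like cells, and higher against lower calls moved from 644 and 825 to 756 and 618 (Col10a1 Mgp cluster) and from 641 and 1078 to 943 and 994 (Tcim Ddit4l cluster), both against chondrocyte-like cells.

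Directions that turned under other settings were, for Gli3, −0.099 between P-SSC-like and chondrocyte-like cells (no integration), 0.059 between P-SSC-like and Lepr+ stromal-like cells (mitochondrial limit 5%), and −0.0014 between chondrocyte-like and osteoblast-like cells (no filter). Against chondrocyte-like cells the Col10a1 Mgp cluster had Smo at −0.20 (mitochondrial limit 5%), Gas1 at −1.62 (no integration), and Boc between −0.17 (without library 2) and 0.078 (without library 1), both against a floor, and the Tcim Ddit4l cluster had Cdon between −1.82 (without library 1) and 0.24 (without library 2). Between both clusters Ihh was at −0.034 (resolution 0.4), Cdon at −0.14 (Hedgehog genes kept in), and Gas1 at 3.82 (no integration). The libraries also had opposite signs (log2 ratio in library 1, then 2) for Hhip in P-SSC-like against chondrocyte-like cells (0.96, −0.78), Gli3 in P-SSC-like against Lepr+ stromal-like (0.31, −0.86) and chondrocyte-like against osteoblast-like cells (0.41, −0.26), Ptch1 in Lepr+ stromal-like against chondrocyte-like cells (−0.49, 0.24), and Boc (−0.66, 0.21) and Hhip (−0.37, 0.36, the first against a floor) in Lepr+ stromal-like against osteoblast-like cells. The same held against chondrocyte-like cells for Ihh in the Col10a1 Mgp cluster (−4.48, 0.18) and for Ihh (−0.85, 0.81) and Smo (0.57, −0.33) in the Tcim Ddit4l cluster, and for Smo between both clusters (1.58, −0.20); none of these was called. The causes were not tested, other than that Gas1 rests on a single cell.

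At 2000 UMIs per cell the mean share of cells with a UMI, which rises with depth by construction, was 19.5% for Ihh and 20.7% for Ptch1 in chondrocyte-like cells, 20.8% for Smo in Lepr+ stromal-like cells, 1.83% for Gli2 in osteoblast-like cells, 5.96% for Gli3 in the Tcim Ddit4l cluster, and 5.01% for Hhip, 61.3% for Gas1, 23.6% for Cdon, and 10.6% for Boc in P-SSC-like cells. The mean of per-cell levels of Ptch1 in chondrocyte-like cells was 128 CPM (115 from the sums). Gli1 and Gli2 were tested only where the filter or the classes changed; with no filter on low counts Gli1 was called lower in the Tcim Ddit4l cluster than in chondrocyte-like cells (adjusted p = 0.00359).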
